A study of Mus musculus with 6 samples.

Results

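The genes described are 10 antioxidant genes of the NRF2 pathway: the regulators Nfe2l2 and Keap1 and 8 genes commonly described as NRF2 targets, Nqo1, Gclc, Gclm, Txnrd1, Srxn1, Gpx1, Gpx2 and Prdx1. They were chosen by name, with earlier results of these data known. Each was read from its brightest probe set annotated to that symbol alone. By this rule 9 of the 10 were measured, with 18 probe sets between them, among 18193 genes measured in all. The 9 all lay among the 13042 genes kept above a threshold on mean intensity. Prdx1 has no value here, because its 5 probe sets are also annotated to Gm21399.

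The arrays held RNA from the flushed small intestine of mice in which Fitm2 (FIT2), whose product lets lipid droplets form at the endoplasmic reticulum, was or was not deleted. Control mice were L/L, and the deletion mice, called KO, were L/L with ROSA26CreERT2, a tamoxifen-activated Cre recombinase. Mice of both genotypes received tamoxifen at 100 µg per g of body weight into the peritoneum, scheduled for days 1, 2 and 3, and were killed on day 2, 3 or 5. Whether later doses were given to mice killed on day 2 or 3 is not stated in the labels, nor are strain and age. Each of the 6 arrays held 1 pool of mice: 6 L/L and 7 KO mice on day 2, 6 L/L and 6 KO mice on day 3, and 8 L/L and 7 KO mice on day 5. The ROSA26 locus is active in most cell types, so the deletion was not restricted to the intestine. The L/L mice carried no Cre, so effects of Cre and of the deletion cannot be told apart. The pools are whole tissue, in which fewer cells of a type and less RNA per cell cannot be told apart.

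NRF2, the product of Nfe2l2, is a transcription factor that KEAP1 holds in the cytoplasm and delivers to a CUL3 ubiquitin ligase for destruction. Electrophiles and oxidants modify cysteines of KEAP1, NRF2 then escapes degradation, pairs with a small MAF protein and binds antioxidant response elements near its targets. Control is thus mostly on the protein, and the RNA of Nfe2l2 or Keap1 does not report NRF2 activity by itself. In the intestine the targets supply glutathione, reduce peroxides and quinones and conjugate dietary compounds.

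The promoters of the genes were searched for the core letters of the antioxidant response element, because that element is what the genes are commonly grouped by. RefSeq promoters of assembly GRCm38.p6, from 250 bases before to 50 bases after the start, were at hand for 9 of the 10 genes (11 promoters, all but Gclc). The motifs TGACNNNGC and TGANTCAGC were searched on both strands; they overlap where the letters satisfy both. Of 32851 mouse promoters of this length, 12.4% held TGACNNNGC, 1.19% held TGANTCAGC and 13% held either. Among the 11 promoters 5 held a match, in Gclm, Nfe2l2, Prdx1, Srxn1 and 1 of the 3 promoters of Txnrd1. These windows are shown 5′ to 3′ on the strand of the gene with the match in capitals.
Gclm: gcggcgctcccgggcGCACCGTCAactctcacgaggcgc
Nfe2l2: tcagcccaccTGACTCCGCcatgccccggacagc
Prdx1: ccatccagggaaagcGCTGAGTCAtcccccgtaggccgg
Srxn1: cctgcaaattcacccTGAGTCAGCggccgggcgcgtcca
Txnrd1: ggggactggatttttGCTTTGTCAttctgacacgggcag
The Gclm window is chr3:122245408-122245446 on the plus strand, its match starts 134 bases before the start, and it reads as TGACNNNGC on the opposite strand. The Nfe2l2 window is chr2:75704880-75704913 on the minus strand, with TGACNNNGC 240 bases before the start. The Prdx1 window is chr4:116685451-116685489 on the plus strand, and its match, 133 bases before the start, satisfies both motifs on the opposite strand. The Srxn1 window is chr2:152105464-152105502 on the plus strand, with TGANTCAGC 45 bases before the start; a second match in the Srxn1 promoter, TGACNNNGC on the opposite strand, starts at position 29 after the start and is not shown. The Txnrd1 window is chr10:82859099-82859137 on the plus strand, with TGACNNNGC on the opposite strand 92 bases before the start. The promoters of Keap1, Nqo1, Gpx1 and Gpx2 did not hold these letters within this window. A match is a description of the letters, not of a bound site.

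The 6 arrays were alike in level, with median intensities from 57.7 to 59.6. Correlations of log2 intensity between arrays ran from 0.978 to 0.997. The brightest Fitm2 probe set read 193, 223 and 211 in L/L on days 2, 3 and 5, against 123, 127 and 120 in KO, so every KO array lay below every L/L array. The mean log2 difference of Fitm2, KO minus L/L, was -0.76 ± 0.10 (SD over 3 days), with an adjusted p of 0.125 in limma over all genes. The summed intensity of 10 of 11 enterocyte markers, none of them dim, ran from 129500 to 141600 in L/L and from 133600 to 141800 in KO. Intensities below are linear probe set values, 1 array each, and differences are on the log2 scale. Probe sets differ in how well they hybridise, so levels are compared between arrays and not between genes.

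Over the 3 days, no NRF2 antioxidant gene passed the test between KO and L/L, and the differences were small. Their mean log2 differences lay between -0.22 for Nqo1 and 0.15 for Txnrd1. The 3 days were the only repeats of the genotype difference, so its SD and SE measure how it varied between days. Each adjusted p below is from limma with Benjamini-Hochberg adjustment over all 13042 genes.

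Among the regulators, Nfe2l2 read 2800, 2814 and 2734 in L/L on days 2, 3 and 5, against 2684, 2388 and 2435 in KO. The KO arrays all lay below the L/L arrays, and the gap was narrowest on day 2. The mean difference of Nfe2l2 was -0.15 ± 0.09 (SD, n = 3 days; SE 0.07, adjusted p = 0.412), with a 95% interval from -0.33 to 0.02. Keap1, the sensor and inhibitor of NRF2, read 402, 464 and 423 in L/L, against 435, 462 and 478 in KO. The Keap1 arrays overlapped: KO was the higher on days 2 and 5 and level with L/L on day 3. Its mean difference was 0.09 ± 0.09 (SE 0.07, adjusted p = 0.545).

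The subunits of glutamate-cysteine ligase, which carries out the rate-limiting step of glutathione synthesis, were slightly higher in KO on each day. Gclc, the catalytic subunit, read 1018, 1055 and 1061 in L/L, against 1054, 1112 and 1134 in KO. Gclm, the modifier subunit, read 2336, 2203 and 1958 in L/L, against 2446, 2278 and 2193 in KO. For both genes the groups overlapped, since the day 2 value of KO lay below (Gclc) or the day 3 and 5 values of KO lay below (Gclm) the highest L/L array. The mean difference was 0.07 ± 0.02 for Gclc (SE 0.06, adjusted p = 0.581) and 0.09 ± 0.06 for Gclm (SE 0.06, adjusted p = 0.526).

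Nqo1, a quinone reductase widely used as a readout of NRF2, was the member with the lowest KO values relative to L/L. It read 172, 282 and 229 in L/L on days 2, 3 and 5, against 176, 208 and 193 in KO. The genotypes were level on day 2, and KO lay below L/L on days 3 and 5, by -0.44 and -0.24 on the log2 scale. The day 3 gap was 1.35-fold, and 3.92% of all genes had one as large that day. The L/L array of day 2 was below all the others, so the groups overlapped, and the mean difference was -0.22 ± 0.23 (SE 0.10, adjusted p = 0.424). Its 95% interval, -0.48 to 0.05, was the widest of the 9.

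In the thioredoxin system, Txnrd1, which reduces thioredoxin with NADPH, read 2436, 2587 and 2052 in L/L, against 2613, 2682 and 2504 in KO. KO was the higher on each day, with log2 differences of 0.10, 0.05 and 0.29, although the L/L array of day 3 lay above the KO array of day 5. The mean difference was 0.15 ± 0.12 (SE 0.07, adjusted p = 0.437). Srxn1, the sulfiredoxin that restores over-oxidised peroxiredoxins, read 1621, 1854 and 1651 in L/L, against 1688, 1808 and 1792 in KO. Its groups overlapped, and the mean difference was 0.05 ± 0.08 (SE 0.06, adjusted p = 0.754).

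The glutathione peroxidases remove peroxides at the cost of glutathione. Gpx1, the ubiquitous enzyme, read 4901, 5124 and 5095 in L/L, against 4611, 4590 and 4897 in KO. All KO arrays of Gpx1 lay below all L/L arrays, though the nearest pair, KO on day 5 and L/L on day 2, almost touched. Its mean difference was -0.10 ± 0.05 (SE 0.06, adjusted p = 0.49). Gpx2, the form typical of gut epithelium, read 3291, 5734 and 7710 in L/L, against 3618, 4812 and 6992 in KO. Both genotypes had their lowest Gpx2 value on day 2 and their highest on day 5, and KO was above L/L on day 2 and below it on days 3 and 5. The mean difference was -0.09 ± 0.20 (SE 0.09, adjusted p = 0.683).

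**Figure D1:**
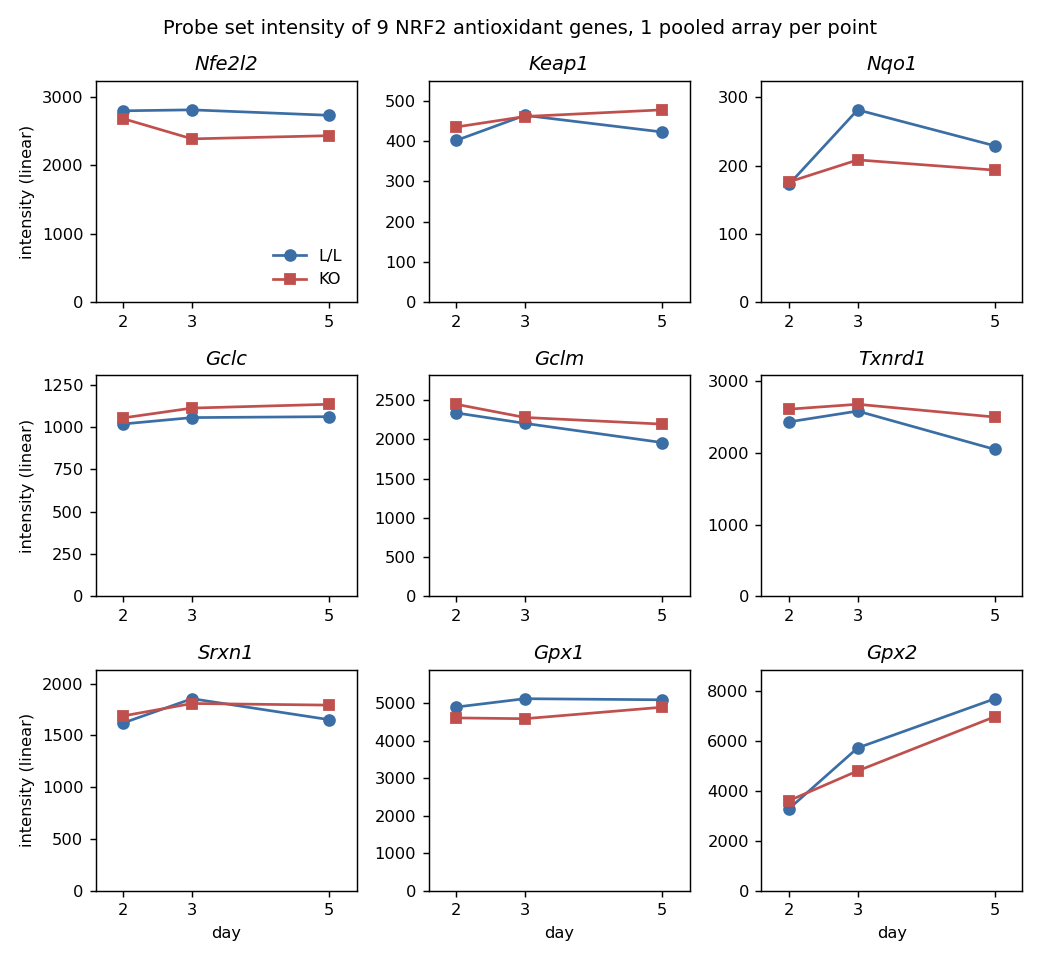
Linear probe set intensity (y axis, from 0) against day (x axis) for the 9 measured genes, with L/L as blue circles and KO as red squares; each point is 1 pooled array and has no error bar. Gpx2 goes from 3291 to 7710 in L/L and from 3618 to 6992 in KO, and the Nqo1 lines part on day 3 (282 in L/L, 208 in KO).

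Set against all genes, 0 of 9 members passed the genotype test over days, where 0.023% of the 13042 genes did (3 genes). The lowest adjusted p of a member was 0.412, and none of the 9 reached an unadjusted p under 0.05, which 1603 of all genes did. The 95% intervals of limma, which use the prior shared across genes, reached 1.40-fold for Nqo1 and 1.16-fold to 1.26-fold for the other members. KO was the higher on all 3 days in 3 members (Gclc, Gclm and Txnrd1), and 22.1% of all genes showed that. It was the lower on all 3 days in 2 members (Nfe2l2 and Gpx1), beside 17.4% of all genes. In the same 2 members every KO array lay below every L/L array, which 5.66% of all genes showed; in 0 members did every KO array lie above, beside 7.48% of all genes. With 9 members, each such gene counts for much of the share.

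No member differed 1.5-fold or more between KO and L/L on any single day. The share of all genes that did so was 0.537%, 1.6% and 8.29% on days 2, 3 and 5. The median difference of the 9 members was 0.06, -0.04 and 0.10 on days 2, 3 and 5, against 0.01, -0.01 and 0.02 for all genes. Their median absolute difference was 0.07, 0.07 and 0.16, against 0.07, 0.10 and 0.16 for all genes. The members thus lay about as far from 0 as the middle gene of the array did. The plot of the differences by day shows 1 point outside the central 90% of genes, that of Nqo1 on day 3.

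**Figure D2:**
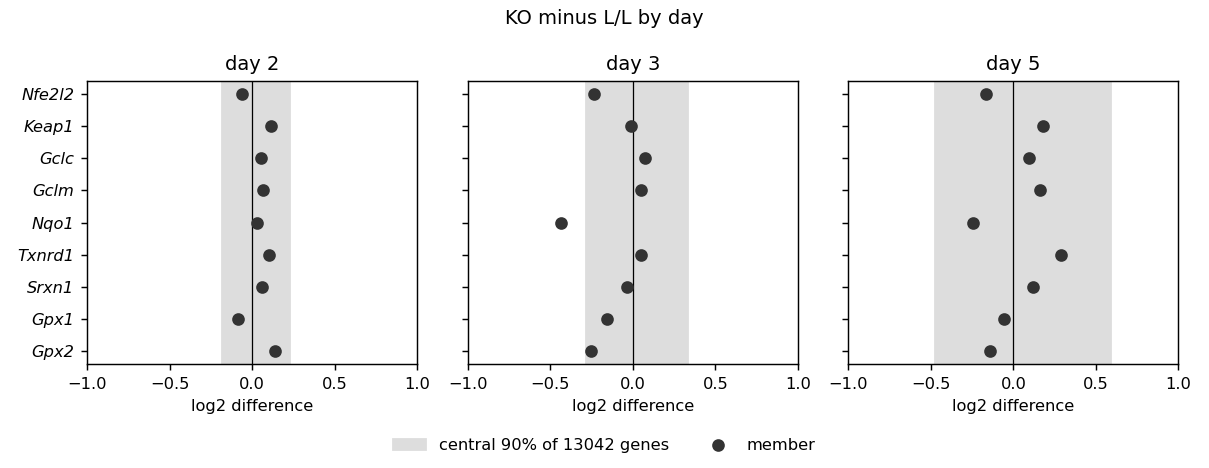
Log2 difference KO minus L/L (x axis) of the 9 genes (y axis) on days 2, 3 and 5, each point from 1 array per genotype; the grey band holds the central 90% of 13042 genes (-0.18 to 0.23, -0.29 to 0.33 and -0.47 to 0.59). Nqo1 on day 3, at -0.44, is the point outside its band.

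Whether the genotype difference grew or shrank with day was tested as a slope of KO minus L/L over days, which rests on 1 residual degree of freedom and a prior shared across genes. No member passed, whereas 1.23% of all genes did (160 genes). None of the 9 reached an unadjusted p under 0.05 in limma, which 2404 of all genes did. The adjusted p of the slope was lowest for Txnrd1, at 0.525, and highest for Gclc, at 0.918.

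Within L/L, Gpx2 and Nqo1 were lower on day 2 than on the later days. Gpx2 was 1.74-fold higher on day 3 and 2.34-fold higher on day 5 than on day 2 (log2 0.80 and 1.23), and 0.552% and 0.215% of all genes differed as much. Nqo1 was 1.63-fold higher on day 3 and 1.33-fold higher on day 5 (log2 0.71 and 0.41), and 0.813% and 8.67% of all genes differed as much. These are single arrays, with no test. On day 3 these were the 2 members 1.5-fold or more from day 2 in L/L, beside 1.62% of all genes, and on day 5 Gpx2 was the 1 such member, beside 2.92%. By their brightest probe sets, the other 7 members stayed between -0.25 (Gclm on day 5) and 0.21 (Keap1 on day 3). Some dimmer probe sets went further, most of all that of Nfe2l2, with 1.69 on day 3 and 0.98 on day 5. The dimmer Srxn1 probe sets differed by -0.46, -0.44 and -0.46 on day 5. The summed intensity of the 10 crypt markers measured differed in L/L by -0.04 on day 3 and 0.01 on day 5 from day 2, and that of the enterocyte markers by -0.06 and -0.13. Single crypt markers did not all follow the sum. The proliferation markers Mki67 and Top2a were higher than on day 2. They differed by 0.54 and 0.25 on day 3 and by 0.54 and 0.23 on day 5. The proliferation markers Pcna and Mcm2 were lower, by -0.01 and -0.02 on day 3 and by -0.38 and -0.07 on day 5. The sum of B and plasma cell markers differed by 0.45 and 0.76, and that of pancreatic acinar markers by -0.36 and -0.41. The myeloid sum differed by -0.11 and -0.37, the T cell sum by 0.09 and -0.34 and the smooth muscle sum by 0.02 and 0.34. Against the myeloid sum, Mrc1 (0.42 and 0.32) and Itgam (0.26 and 0.06) were higher. The Paneth, goblet, fibroblast, endothelial and hepatocyte sums stayed between -0.20 and 0.12. Most of the B and plasma cell difference was Jchain (0.69 and 1.07), and Mzb1 was also higher (0.23 and 0.22). Cd79a (-0.12 and -0.05) and Cd79b (-0.21 and -0.26) were lower on both days, and Ms4a1 on day 3 only (-0.29 and 0.12). The part of these markers in the day differences was not tested.

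The KO arrays showed the same order of days for Gpx2, with log2 differences of 0.41 on day 3 and 0.95 on day 5 from day 2. For Nqo1 they were 0.24 and 0.14. A contrast of days over both genotypes, added after the values were seen, gave Gpx2 a log2 difference of 0.61 on day 3 (SE 0.11, adjusted p = 0.454) and 1.09 on day 5 (2.13-fold, SE 0.11, adjusted p = 0.0995). Nqo1 had 0.48 on day 3 (adjusted p = 0.471) and 0.27 on day 5 (adjusted p = 0.291). In limma 0% of the 13042 genes passed on day 3 and 0% on day 5. An unadjusted p under 0.05 was reached by 1275 and 2758 genes. Among the members 2 reached it on each day, Gpx2 and Nqo1 on day 3 and Gpx2 and Gclm on day 5. The day difference of Gpx2, the same way in both genotypes, did not pass the test. Its adjusted p on day 5 equalled the lowest of all genes, a value that Slc3a2 and Ggct shared. Days differ in time and in the injections a mouse could have had, which cannot be told apart.

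**Figure D3:**
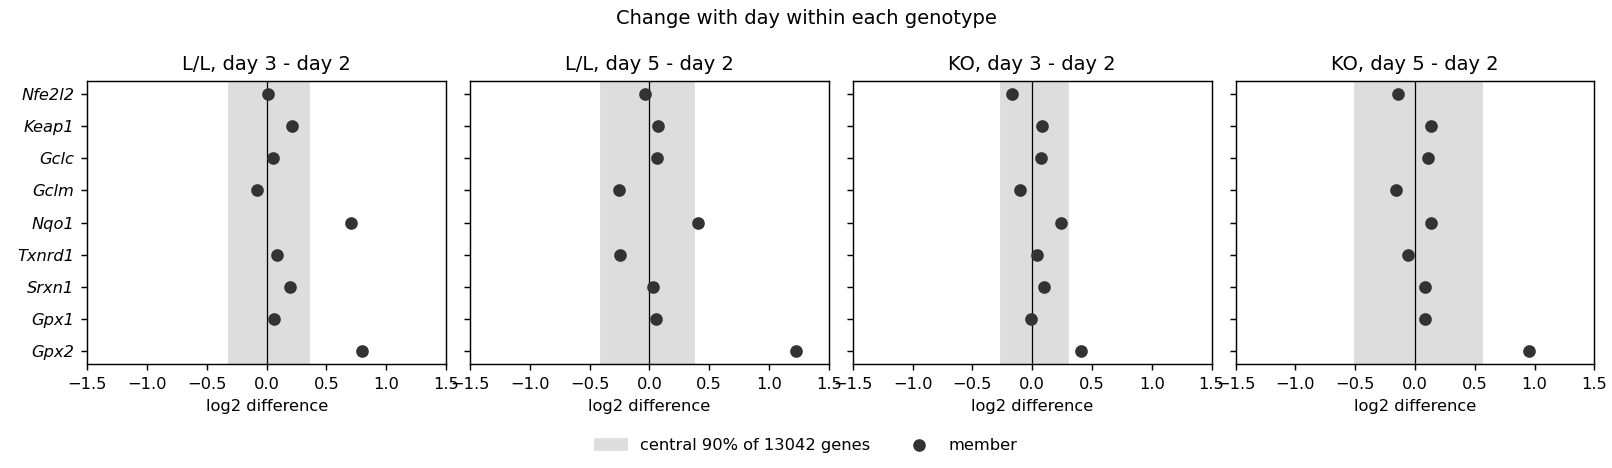
Log2 difference from day 2 (x axis) for the 9 genes (y axis) on days 3 and 5 within L/L and within KO, each point from 1 array per day, with the central 90% of 13042 genes in grey. Gpx2 is outside the band in all 4 panels (0.80, 1.23, 0.41 and 0.95), Nqo1 in both L/L panels (0.71 and 0.41), and the other genes are inside.

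Other probe sets of the members were read as a check on the brightest. The dimmer Nfe2l2 probe set read 90.3, 290 and 178 in L/L on days 2, 3 and 5, against 91.3, 217 and 154 in KO. This is unlike the brightest Nfe2l2 probe set (r = -0.173 over the 6 arrays) and has the order of Nqo1 (r = 0.914). Its difference between KO and L/L, -0.42 on day 3 and -0.21 on day 5, had the sign of the brightest. The dimmer Txnrd1 probe sets followed the brightest (r = 0.942 and 0.977) and were higher in KO by 0.32 and 0.27 on day 5. The dimmer Srxn1 probe sets differed by 0.12, 0.30 and 0.44 on day 5, against 0.12 for the brightest. The dimmer Gclc probe set was lower in KO on day 3, by -0.05, where the brightest was higher, and the dimmer Gclm probe set was lower on day 5, by -0.04. The dimmer Keap1 probe set was higher in KO on each day, by 0.08, 0.21 and 0.03. Nqo1, Gpx1 and Gpx2 each had 1 probe set.

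The brightest probe sets of the members had no common pattern over the arrays. Over the 6 arrays the 36 pairs of members had correlations of log2 intensity from -0.911 (Nfe2l2 with Gclc) to 0.927 (Keap1 with Srxn1), with a median of 0.04, and 17 of the 36 were below 0. Arrays of a day or a genotype share more than the gene, so these values describe 6 points only. Probe sets of the same gene were not always alike either. With the brightest, r was 0.137 for Keap1 and 0.172, 0.494 and 0.682 for Srxn1, against 0.825 for Gclc and 0.718 for Gclm. Low values between members therefore cannot show that the genes varied apart. Among the 3104 genes with an SD of at least 0.2 over the arrays, those most like Nqo1 were Abhd17a (r = 0.987), Plcxd2 (r = 0.964) and Mrps28 (r = 0.951). Those most like Nfe2l2 were Atp10b (r = 0.988), BC064078 (r = 0.974) and E2f5 (r = 0.971).

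The lists of other pathway genes were also chosen with earlier results of these data known. Of 80 other genes of the pathway, 73 had a probe set of their own symbol and 69 were kept. Nfe2l3, Nfe2, Slc7a11 (the cystine transporter) and Aldh3a1 were dim. None of the 69 passed the genotype test over days, beside the 0.023% of all genes; 10 higher and 4 lower genes reached an unadjusted p under 0.05 in limma, as did 1002 higher and 601 lower of the 13042. In KO, 15 were higher and 15 lower on all 3 days, beside 22.1% and 17.4% of all genes. Their median difference was 0.04, -0.04 and -0.03 on days 2, 3 and 5. On day 5, 15 of the 69 (21.7%) differed 1.5-fold or more, 10 higher and 5 lower in KO, where 8.29% of all genes did. On days 2 and 3 it was 2.9% and 4.35%, where 0.537% and 1.6% of all genes did.

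The largest differences were among the 26 kept genes of conjugation, export, heme and iron, of which 9 were higher and 5 lower in KO on all 3 days (22.1% and 17.4% of all genes). Ephx1, the microsomal epoxide hydrolase, read 264, 221 and 236 in L/L, against 426, 657 and 957 in KO. All KO arrays of Ephx1 lay above all L/L arrays, with log2 differences of 0.69, 1.57 and 2.02, yet its mean of 1.43 ± 0.67 (SE 0.25) had an adjusted p of 0.341. Its slope over days had an adjusted p of 0.0858. Abcc1, a glutathione-conjugate exporter, read 119, 136 and 143 in L/L, against 150, 187 and 352 in KO. Its KO arrays all lay above its L/L arrays, and its mean difference was 0.69 ± 0.53 (SE 0.20, adjusted p = 0.381).

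The genotype difference changed with day in 3 of the 69 genes (4.35%, beside 1.23% of all genes). Akr1b8, an aldo-keto reductase, read 148, 167 and 192 in L/L, against 171, 307 and 562 in KO, a slope of 0.43 per day (SE 0.06, adjusted p = 0.0454). Abcc4, an export pump, read 88.1, 96.0 and 93.3 in L/L, against 96.6, 129 and 274 in KO, a slope of 0.49 per day (SE 0.05, adjusted p = 0.0375). The differences of Akr1b8 and Abcc4 were smallest on day 2 (0.21 and 0.13), and both genes were highest in KO on day 5. Gstm3, a glutathione transferase, ran the other way, with 3349, 3793 and 2614 in L/L, against 3904, 3676 and 1145 in KO, a slope of -0.49 per day (SE 0.06, adjusted p = 0.0396). Gstm3 has close paralogs, and its dimmer probe set differed by -0.34 on day 5, against -1.19 for the brightest. These calls were lost with no filter on dim genes (adjusted p = 0.169 for each), and those of Abcc4 and Gstm3 also with days coded 1, 2, 3 (0.0603 and 0.0667). Under 8 alternative settings the slope passed in 7 for Akr1b8 and in 6 each for Abcc4 and Gstm3. That of Abcc1 (adjusted p = 0.06 in limma) passed in 5 of them and that of Ephx1 in 4, so the line between these genes depended on the processing.

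**Figure D4:**
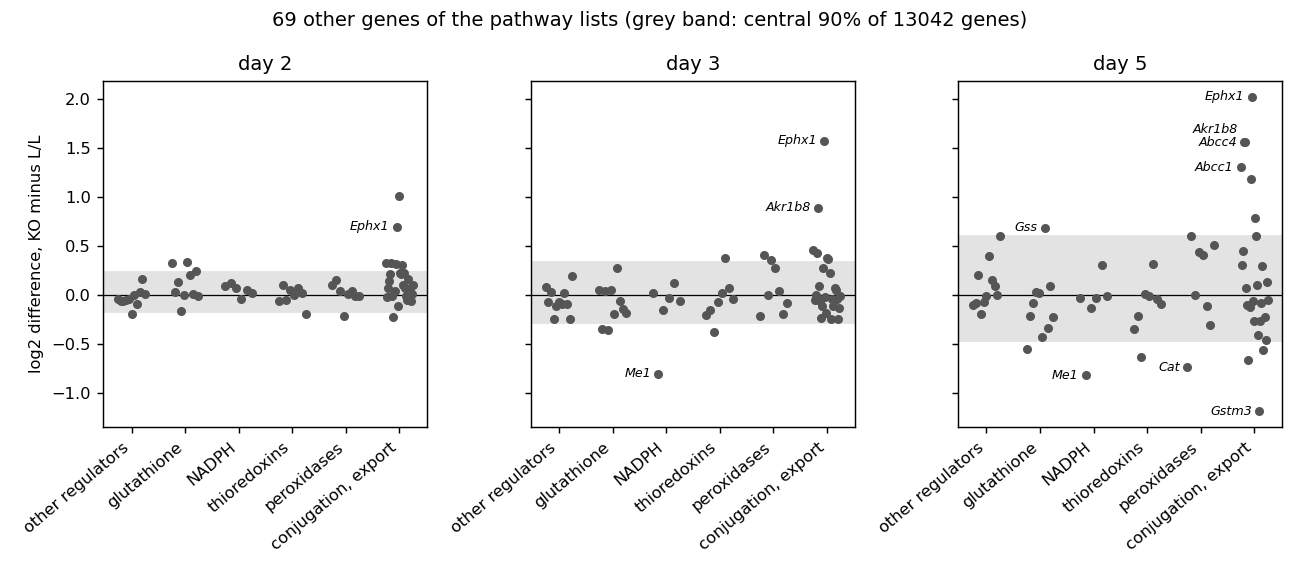
Log2 difference KO minus L/L (y axis) on days 2, 3 and 5 for the 69 other pathway genes by list (x axis), each point 1 gene from 1 array per genotype, with the central 90% of 13042 genes in grey. The points spread with day, and on day 5 Ephx1 (2.02), Akr1b8 (1.55) and Abcc4 (1.56) lie highest and Gstm3 (-1.19) lowest.

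The counts of genes higher or lower on all 3 days in the smaller lists stand beside the same 22.1% and 17.4% of all genes. In glutathione supply and recycling (10 genes kept, 1 higher and 1 lower on all 3 days), Gss, glutathione synthetase, read 863, 964 and 859 in L/L, against 988, 1163 and 1378 in KO; its mean difference was 0.38 ± 0.26 (SE 0.11, adjusted p = 0.381). Chac2 (-0.18), Glo1, the glyoxalase that uses glutathione (-0.17), and Slc3a2, the heavy chain of cystine and amino acid transporters (-0.14), had lower mean values in KO. Among 6 NADPH-producing enzymes (1 higher and 1 lower), Me1, malic enzyme, read 423, 954 and 1231 in L/L, against 458, 544 and 697 in KO. In KO, Me1 was slightly higher on day 2, by 0.11, and below L/L by -0.81 and -0.82 on days 3 and 5. Its mean difference was -0.51 ± 0.54 (SE 0.20, adjusted p = 0.409 in limma). Mean differences were small for Taldo1 (0.15), Pgd (-0.08) and Pgls (-0.04), enzymes of the pentose phosphate pathway. Of 11 other regulators 1 was higher and 4 were lower on all 3 days. Sqstm1 (p62), an autophagy receptor that binds KEAP1, read 1234, 1544 and 933 in L/L, against 1238, 1765 and 1416 in KO, and Cul3, the scaffold of the ligase that KEAP1 serves, had a mean difference of -0.17. The small MAF partners Mafg and Maff had means of 0.10 and -0.10. Dimmer probe sets of Mafg and Sqstm1 had means of -0.04 and -0.18, the other sign from the brightest. Of 8 thioredoxins and peroxiredoxins 1 was higher and 3 were lower, among them Prdx4, the peroxiredoxin of the endoplasmic reticulum, with -0.06, -0.38 and -0.63 by day. Txnip, the thioredoxin-interacting protein, had a mean of 0.25, Prdx2 of -0.21 and Txnrd3 of -0.11. The dimmer Txnrd3 probe sets had means of 0.07 and -0.10. Of 8 peroxidases, catalase and superoxide dismutases 2 were higher and 1 was lower. Catalase (Cat) had differences of 0.10, -0.22 and -0.74, and its dimmer probe set 0.10, -0.61 and -0.98. Gpx3, a secreted glutathione peroxidase, had a mean of 0.38, and Gpx8 and Gpx7 had means of 0.23 and 0.19. Hmox1, the heme oxygenase often used as a stress readout and named after its values were seen, read between 56.1 and 62.9 on 5 arrays and 69.1 in KO on day 5 (mean 0.10, adjusted p = 0.595).

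**Figure D5:**
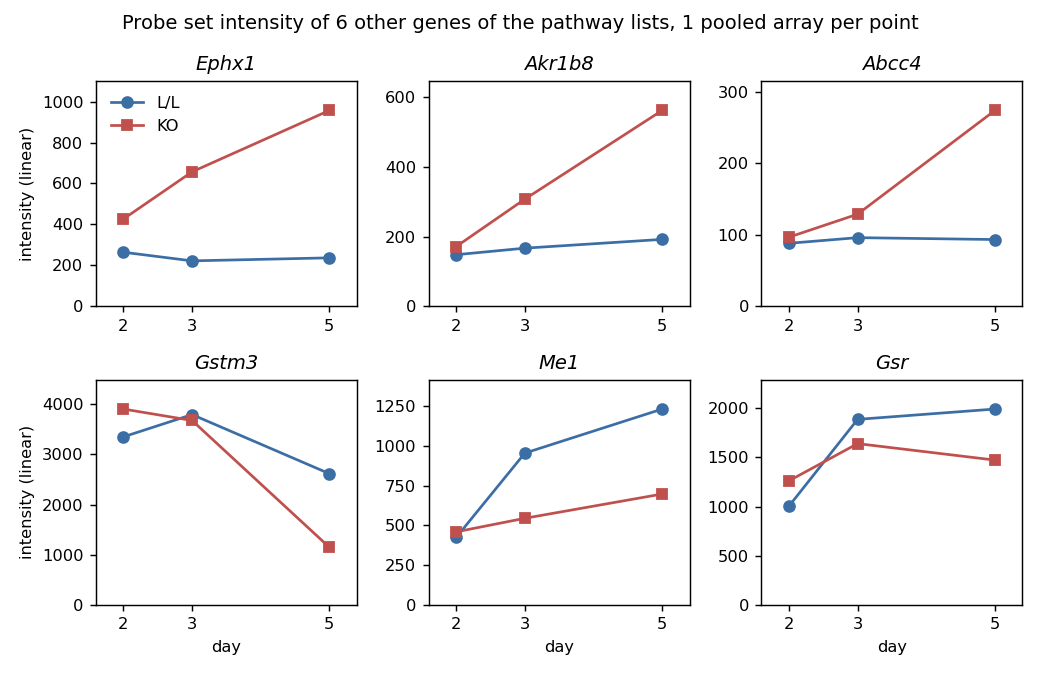
Linear probe set intensity (y axis, from 0) against day (x axis) for 6 other pathway genes, with L/L as blue circles and KO as red squares, 1 pooled array per point and no error bar. Ephx1, Akr1b8 and Abcc4 part upward in KO (957, 562 and 274 on day 5), Gstm3 is lowest in KO on day 5 (1145), and Me1 and Gsr are higher in L/L on days 3 and 5.

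Markers of other cells also differed between the genotypes, most on day 5. The summed intensity of 9 myeloid markers ran from 2513 to 3243 in L/L and from 3522 to 5230 in KO, with log2 differences of 0.12, 0.42 and 1.06 on days 2, 3 and 5. That of 4 of 6 Paneth markers ran from 22530 to 24020 in L/L and from 27320 to 38950 in KO, with 0.28, 0.33 and 0.78. That of 10 of 11 crypt and proliferation markers ran from 14950 to 15460 in L/L and from 10550 to 15790 in KO, with 0.04, -0.05 and -0.55. Most of that day 5 gap was Olfm4, which read 6061 in L/L and 1545 in KO. Mki67, Top2a, Lgr5 and Smoc2 were also lower on day 5, by -0.98, -0.68, -0.35 and -0.07. Slc12a2, Ascl2, Axin2, Mcm2 and Pcna were higher, by 0.03 to 0.25, and the median of the 10 was -0.02. The endothelial sum differed by 0.13, 0.28 and 0.61, and the fibroblast sum by -0.01, 0.11 and 0.48. The hepatocyte sum, of 3 of 4 markers, differed by -0.07, -0.23 and -0.73, with Alb dim. That sum was nearly all Cps1, at 5300 of 5475 for the day 2 L/L array. Cps1 differed by -0.07, -0.24 and -0.78. Ttr, the other gene of that list kept, was lower at first and then higher, with -0.12, 0.35 and 0.66. The sum thus describes Cps1 and not hepatocyte markers as a set, and with Alb dim it is not read as a level of hepatocytes. The myeloid, Paneth, crypt, endothelial and fibroblast lists held no dim marker, and the part of these cells in the day 5 differences above was not tested.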

How the data were processed

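Small intestine RNA of 6 pools was read on Affymetrix 3' arrays. Per probe set and array the authors deposited 1 processed intensity (3.82 to 31146, linear); Partek and RMA are named in the submitters' processing notes, with roles and parameters not given in the sources used here. The tests had been planned for either scale, and log2 was taken with no offset and no further normalization. Of 45101 probe sets, 34945 had 1 gene in the platform annotation; 932 with several were left out and 9160 were unnamed. Genes were kept where the brightest probe set lay above the 40th percentile of mean log2 (5.28, an intensity of 38.9).

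limma 3.58.1 in R 4.3.3 was fitted to all 6 arrays testing genotype beside a factor for day (2 residual degrees of freedom, prior 3.03). The slope was the product of genotype and centred day (1 residual degree, prior 4.76). Tests were two-sided with Benjamini-Hochberg adjustment at 0.05. Single days and days within L/L have 1 array a group and no test. Pools hide the spread between mice. The p-values rest on how differences varied between days, combined with the prior variance shared across genes.

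Named genes were the members, up to 4 genes per other list with the largest mean difference or past a threshold, and the 3 genes most like Nqo1 and Nfe2l2. The members and lists were chosen with earlier results of these data known.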

Additional observations from a re-analysis of the deposited data

Results flagged for a closer look

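In 3 other genes of the NRF2 pathway the difference between KO and L/L was not the same on days 2, 3 and 5, by limma's test of its slope over days. The difference of Abcc4 grew by 0.487 per day on the log2 scale (adjusted p = 0.0375), from 0.13 on day 2 to 1.56 on day 5. That of Akr1b8 grew by 0.431 per day (adjusted p = 0.0454), from 0.21 to 1.55. That of Gstm3 had a slope of -0.485 per day (adjusted p = 0.0396), from 0.22 to -1.19. Each slope is drawn through 3 differences of 1 array per genotype, with 1 residual degree of freedom. No slope of the 9 measured NRF2 antioxidant genes passed.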

How the results depend on the processing

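The genotype difference of the 9 members kept its sign and stayed short of the threshold under all 14 alternatives to the main analysis; the lowest adjusted p was 0.226, for Nqo1. With cyclic loess 5 members, in place of 3, were higher in KO on every day. At a 2-fold minimum 0 members, in place of 2, differed between days 2 and 3 in L/L. With the mean of all probe sets, 3 members differed 1.5-fold or more between those days. The mean difference of Gstm3 turned to 0.0878 without day 5. The 3 genes called over days among all genes became 6 with a linear day and 1 with the mean of all probe sets, and 1, 0 and 2 without day 2, 3 and 5. The 160 genes with a slope became 312 with arrays centred on the median, 63 with days coded 1, 2, 3, 531 with the trend of eBayes, 275 with a filter at the 60th percentile, 550 with an offset of 32 and 0 with no filter. The cause was not tested. Day, which pairs each KO array with an L/L array, is a term of the main fit; with no day term 3 genes were called. With 6 pooled arrays and no detection calls, small differences of dim genes cannot be judged.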

Other observations

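Several other pathway genes differed between days within L/L, where each day is 1 array and there is no test; those named here were chosen after their values were seen. Gsr, the glutathione reductase, read 1004, 1888 and 1993 in L/L on days 2, 3 and 5, against 1262, 1641 and 1473 in KO. It was thus 1.88-fold and 1.98-fold above day 2 in L/L, while its mean difference between genotypes was -0.10 (limma, adjusted p = 0.776). Me1 was 2.25-fold and 2.91-fold above day 2 in L/L on days 3 and 5. Gsta2, a glutathione transferase, read 60.8, 90.2 and 144 in L/L, against 122, 79.3 and 119 in KO, so the genotypes differed by 1.00 on the log2 scale on day 2 and by -0.27 on day 5. Maff, a small MAF partner of NRF2, read 220, 342 and 276 in L/L, against 192, 325 and 273 in KO, highest on day 3 in both.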
